A study of Mus musculus with 4 samples.

Results

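The genes that flank *Ip6k2* on mouse chromosome 9 were examined on 4 microarrays of IP6K2-WT and IP6K2-KO tissue. The 10 genes were *Impdh2*, *Wdr6*, *P4htm*, *Arih2*, *Slc25a20* and *Prkar2a* on one side of *Ip6k2*, and *Nckipsd*, *Celsr3*, *Slc26a6* and *Tmem89* on the other. They were chosen as close neighbours of *Ip6k2*, with earlier results of these data known, and not every gene nearer than *Impdh2* is among them. They make up 10 of the 32575 genes or unnamed transcripts on the array and 13 of its 39429 probes. Total RNA of spinal cord and of duodenum came from male mice at 20 weeks of age, and each genotype was represented by 1 array per tissue. The IP6K2-KO (*IP6K2*-/-) mice lack exon 6 of the gene, which the study's methods describe as coding for the kinase domain, and the IP6K2-WT mice were their littermates. Both genotypes ate normal diet (CE-2) at first, were moved to purified diet (iVid-neo), which they ate for 1 week, and received no food in the last 48 h. The question the design poses is which transcripts differ between the genotypes in each tissue. With 1 array in each group no test could be made, and no difference below has a replicate check.

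*Ip6k2* encodes an inositol hexakisphosphate kinase, which makes the inositol pyrophosphate IP7. Genes beside a targeted gene are inherited together with it, so the neighbours are commonly read in a knockout. The flanking genes have unrelated functions. *Nckipsd* encodes SPIN90, an adaptor with an SH3 domain that binds Nck and takes part in actin assembly, and *Prkar2a* encodes a regulatory subunit that holds protein kinase A inactive and ties it to anchoring proteins. *Celsr3*, an atypical cadherin of planar cell polarity, guides axons, and *P4htm* encodes a membrane prolyl hydroxylase of the endoplasmic reticulum. *Slc26a6* is an apical anion exchanger that carries chloride, bicarbonate and oxalate, and *Slc25a20* carries acylcarnitines into mitochondria for fatty acid oxidation. *Impdh2* catalyses the rate-limiting step of guanine nucleotide synthesis, *Wdr6* is a partner of a tRNA methyltransferase, and *Arih2* is a ubiquitin ligase that works with cullins.

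The region around each transcription start is given for *Nckipsd* and *Prkar2a*, the nearest neighbours on either side of *Ip6k2*, for *Ip6k2* itself, and for *Celsr3* and *Slc26a6*, which differed most between the WT tissues. Each window runs from 250 bases before the start to 50 bases after it, 5′ to 3′, in RefSeq's mouse build GRCm38.p6. Capitals mark the GC box GGGCGG and the CCAAT box, on either strand.
Nckipsd, chr9:108808130-108808429, plus strand: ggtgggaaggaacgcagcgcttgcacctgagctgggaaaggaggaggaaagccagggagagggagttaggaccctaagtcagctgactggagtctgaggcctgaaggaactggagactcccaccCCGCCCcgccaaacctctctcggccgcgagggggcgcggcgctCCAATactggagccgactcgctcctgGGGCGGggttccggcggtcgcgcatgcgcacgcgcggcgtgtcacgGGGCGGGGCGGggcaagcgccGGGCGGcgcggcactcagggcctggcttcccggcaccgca
Ip6k2, chr9:108783562-108783861, plus strand: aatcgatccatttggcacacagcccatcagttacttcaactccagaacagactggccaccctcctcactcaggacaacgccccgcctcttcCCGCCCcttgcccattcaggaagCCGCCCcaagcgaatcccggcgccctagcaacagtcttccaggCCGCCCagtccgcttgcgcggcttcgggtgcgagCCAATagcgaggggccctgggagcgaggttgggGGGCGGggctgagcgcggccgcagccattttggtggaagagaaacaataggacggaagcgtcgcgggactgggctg
Prkar2a, chr9:108691893-108692192, plus strand: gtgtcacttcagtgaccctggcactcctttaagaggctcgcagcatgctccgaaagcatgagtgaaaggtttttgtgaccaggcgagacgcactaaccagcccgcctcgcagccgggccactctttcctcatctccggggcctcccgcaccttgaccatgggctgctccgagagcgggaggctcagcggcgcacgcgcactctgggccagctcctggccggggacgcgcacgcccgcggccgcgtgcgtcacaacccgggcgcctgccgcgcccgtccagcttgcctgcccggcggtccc
Celsr3, chr9:108825795-108826094, plus strand: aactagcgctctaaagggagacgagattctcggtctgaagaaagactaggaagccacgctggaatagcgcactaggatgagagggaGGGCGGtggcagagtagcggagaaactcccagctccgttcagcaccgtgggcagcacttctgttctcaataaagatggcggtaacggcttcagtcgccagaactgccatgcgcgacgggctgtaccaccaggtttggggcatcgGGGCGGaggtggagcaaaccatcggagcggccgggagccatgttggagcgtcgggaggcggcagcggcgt
Slc26a6, chr9:108853793-108854092, plus strand: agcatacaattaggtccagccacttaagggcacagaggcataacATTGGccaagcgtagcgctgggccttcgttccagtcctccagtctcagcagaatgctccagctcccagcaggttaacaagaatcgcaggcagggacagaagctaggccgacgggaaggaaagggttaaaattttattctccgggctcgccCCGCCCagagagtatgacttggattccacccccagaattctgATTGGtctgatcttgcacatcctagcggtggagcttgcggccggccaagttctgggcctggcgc
The *Nckipsd* window held 5 GC boxes, of which 2 overlap by 1 base in a single run, and 1 CCAAT box. It was the richest of these in GC, at 71% with 32 CpG dinucleotides. The *Prkar2a* window, at 69% GC with 31 CpG, held neither motif. The *Ip6k2* window held 4 GC boxes and 1 CCAAT box, that of *Celsr3* 2 GC boxes, and that of *Slc26a6* 1 GC box and 2 CCAAT boxes. Of 32851 such windows of 27025 genes, 35.7% held a GC box and 37.4% a CCAAT box, and the medians were 52.7% GC and 7 CpG. A TATAAA sequence was in 13.6% of all windows, a TGACGTCA in 1.79% and a CACGTG in 7.15%. None of these was in the windows printed here. All of the 10 genes had a window, and outside the printed ones TATAAA and CACGTG were each found once, in that of *Impdh2*. From the first *Ip6k2* start, the starts of *Nckipsd*, *Celsr3*, *Slc26a6* and *Tmem89* lay 24.6, 42.2, 70.2 and 131 kb after it, and that of *Prkar2a* lay 91.7 kb before it. Those of *Slc25a20*, *Arih2*, *P4htm*, *Wdr6* and *Impdh2* lay 122, 134, 186, 205 and 223 kb before it.

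Levels are given as the processed signal, a fluorescence intensity after background subtraction, and as a normalized level, log2 of this signal minus the 75th percentile of the array. That percentile was 905 and 971 in the spinal cord and 68.0 and 323 in the duodenum, WT first, so the WT duodenum array was the dimmest. The share of probes well above background was 51.6% on that array and 66.3% to 77.3% on the other three, and no probe was saturated. All 13 probes of the flanking genes were well above background on all 4 arrays. The single *Ip6k2* probe read 452 and 1320 in the spinal cord and 139 and 572 in the duodenum, WT first, so labelled KO minus WT was 1.45 on the normalized scale in the spinal cord and −0.21 in the duodenum. Its position relative to exon 6 is not given in the sources used here, so it does not check the labels, and genotypes are written as labelled. Of 8 markers of duodenal epithelium, all were well above background on both duodenum arrays and 2 on each spinal cord array, and all 6 neuronal markers were well above background on both spinal cord arrays. Markers of other cells also moved with the genotype label. In the spinal cord, 5 of 5 skeletal muscle markers were at least 2-fold higher on the array labelled KO. Their summed level was 1.15 on WT and 5.28 on KO, and *Mylpf* was not well above background on WT. So were 3 of 4 markers of Schwann cells (0.93 and 3.72; *Pmp2* was not well above background on WT) and 4 of 5 of neutrophils (5.66 and 6.59). In the duodenum, 5 of 5 red blood cell markers were at least 2-fold lower on the array labelled KO (10.6 on WT and 6.47 on KO). So were 5 of 6 markers of pancreatic acinar cells (13.2 and 11.5) and 2 of 8 of duodenal epithelium (11.3 and 10.1). The part of these cells in the differences below was not tested, and in whole tissue fewer cells of a type and less RNA per cell cannot be told apart.

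*Nckipsd*, which lies next to *Ip6k2*, was higher on the array labelled KO in both tissues. Under the 75th percentile scaling it differed more between the labels in the duodenum than any other measured gene among the 30 nearest to *Ip6k2*. In the spinal cord its processed signal was 1536 on WT and 3159 on the array labelled KO, normalized levels of 0.76 and 1.70. The difference was 0.94 ± 0.056, a ratio of 1.92. Errors are technical SDs, taken from probes that each array carries in 10 spots, and leave out the variation between mice. For the duodenum, WT gave a signal of 11.1 and the array labelled KO one of 412, with normalized levels of −2.62 and 0.35. The difference was 2.97 ± 0.18, a ratio of 7.82. Among the 21428 genes compared in the duodenum, 12 others were at least as much higher on the array labelled KO, and in the spinal cord 638 others of 25215 were. Of 16183 genes well above background on all 4 arrays, 1 other was at least as much higher in both tissues, a transcript without a symbol in the reference (ENSMUST00000103324, named after its values were seen), with differences of 3.04 and 1.95. The WT duodenum value lay close to background, where the spot's median was 35 and its local background 23 before any correction. With the normexp background correction, which adds an offset of 50, more than the WT duodenum signal, the duodenum difference was 1.19. The sign was kept in both tissues in every one of 8 alternative treatments of the arrays. These are not separate checks, here or below. The deposited table repeats quantile normalization, and the mean of probes leaves a gene with 1 probe unchanged.

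*Prkar2a*, the nearest gene on the other side of *Ip6k2*, differed in the opposite sense in the spinal cord. Its signal there was 418 on WT and 235 on the array labelled KO, with normalized levels of −1.11 and −2.05. The difference was −0.93 ± 0.064, so the level on the array labelled KO was 1.91-fold lower, and the sign was kept under all 8 alternatives, between −1.10 and −0.79. In the duodenum the signal was 18.2 on WT and 131 on the array labelled KO, the normalized levels were −1.90 and −1.30, and the difference was 0.60 ± 0.14. There the direction was not settled. The difference was −0.21 with normexp, which adds an offset of 50, more than the WT signal. In the spinal cord *Nckipsd* and *Prkar2a* thus differed in opposite directions by sizes that cannot be told apart, each just under 2-fold, and no other flanking gene differed as much under the 75th percentile scaling. With normexp *Tmem89* differed more there, at −2.02, but the WT spinal cord array held a local background as high as 15708. With outlying backgrounds replaced, *Tmem89* was at −0.077.

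**Figure D1:**
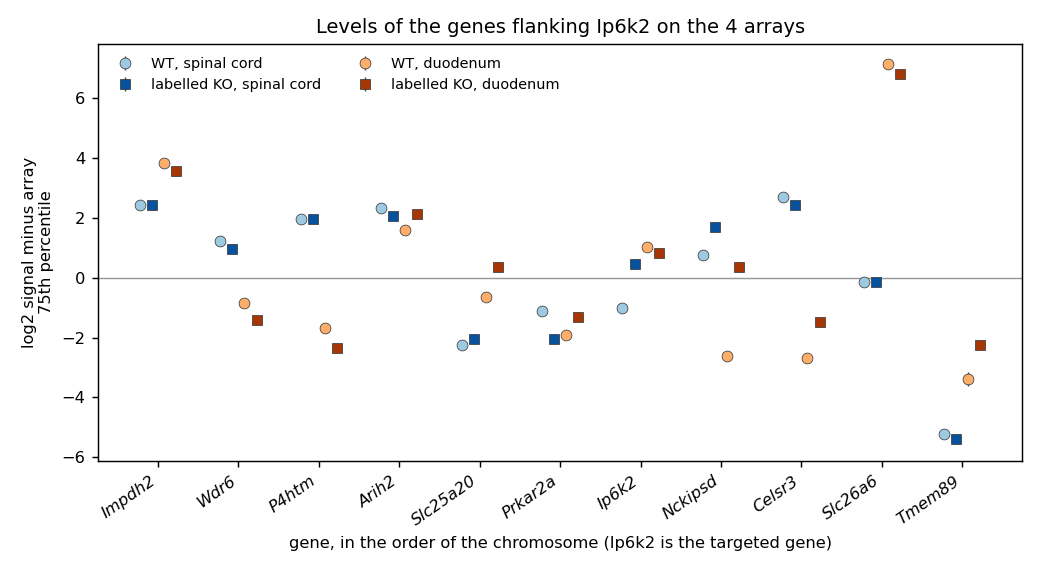
Normalized level (log2 signal minus the 75th percentile of the array) of the 10 flanking genes and *Ip6k2* on each of the 4 arrays, in the order of the chromosome; vertical lines, mostly hidden by the symbols, are technical SDs. The spinal cord symbols coincide for most genes and separate for *Prkar2a*, *Ip6k2* and *Nckipsd*, and *Nckipsd* in the duodenum goes from −2.62 on WT to 0.35 on the array labelled KO.

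*Celsr3* and *P4htm* were brighter in the spinal cord than in the duodenum. *Celsr3* read 5843 and 5191 in the spinal cord, WT first, normalized levels of 2.69 and 2.42, a difference of −0.27 ± 0.058. In the duodenum it read 10.6 on WT and 115 on the array labelled KO, normalized levels of −2.69 and −1.48, a difference of 1.20 ± 0.19 or 2.30-fold. The WT duodenum spot had a median of 34 over a local background of 24, and with normexp the difference was −0.39. The summed level of the 6 spinal cord neuron markers was 4.18 on WT duodenum and 3.45 on the array labelled KO, with *Syt1*, *Nefl* and *Nefm* not well above background on WT and *Nefm* on KO. That of 5 enteric neuron markers was 0.16 and −0.01, with *Nos1* not well above background on either. The median levels went the other way, from −3.70 on WT to −3.24 on KO and from −2.18 to −1.96. *P4htm* read 3550 and 3763 in the spinal cord, normalized levels of 1.97 and 1.95 that differed by −0.02 ± 0.056, within the technical error. In the duodenum it read 21.4 and 62.8, normalized levels of −1.67 and −2.36 that differed by −0.69 ± 0.14.

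Of the transporters, *Slc26a6* was nearly equal between the labels. Its brightest probe read 9442 on WT duodenum and 36011 on the array labelled KO, normalized levels of 7.12 and 6.80, a difference of −0.32 ± 0.067. The other probes gave 0.07 and −0.21, and the sign also turned under quantile normalization, at 0.27. Its spinal cord signals were 825 and 888, levels of −0.13 on both arrays, which differed by 0.01 ± 0.061. *Slc25a20* read 43.3 on WT duodenum and 412 on the array labelled KO, normalized levels of −0.65 and 0.35. The difference of 1.00 ± 0.10 sat on the 2-fold threshold. Its spinal cord signals were 189 and 233, levels of −2.26 and −2.06, which differed by 0.20 ± 0.071.

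The flanking genes *Impdh2*, *Wdr6* and *Arih2* differed by less than 2-fold between the labels in both tissues. *Impdh2* read 4867 and 5184 in the spinal cord, a difference of −0.01 ± 0.058, and 961 and 3777 in the duodenum, levels of 3.82 and 3.55 that differed by −0.27 ± 0.066. Its second probe gave −0.41 in the duodenum, and quantile normalization brought the difference of the first to 0.0031. *Wdr6* had a probe spotted 10 times, of which 8 to 10 spots were kept on each array, so its spot error could be measured directly. Its levels were 1.23 ± 0.038 on WT and 0.96 ± 0.042 on KO in the spinal cord, and −0.83 ± 0.077 on WT and −1.42 ± 0.046 on KO in the duodenum, as mean and SD over spots. The signals of the spots ran from 2074 to 2232 and from 1774 to 1965 in the spinal cord, and from 35.4 to 41.9 and from 114 to 126 in the duodenum. The genotype differences were −0.28 ± 0.055 in the spinal cord and −0.59 ± 0.11 in the duodenum. Their errors are technical SDs from probes of like level, as for the other genes, and not from these spots. *Arih2* read 4532 and 4054 in the spinal cord and 206 and 1422 in the duodenum, with differences of −0.26 ± 0.057 and 0.54 ± 0.074. The duodenum difference of *Arih2* kept its sign under all 8 alternatives, which are not separate checks. *Tmem89*, a predicted membrane protein, was dim in both tissues. It read 24.0 and 23.4 in the spinal cord and 6.54 and 67.8 in the duodenum, with differences of −0.14 ± 0.14 and 1.13 ± 0.25. Its WT duodenum spot had a median of 31 over a local background of 23, and with normexp the duodenum difference was −0.54.

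Counted together, 4 of the 10 flanking genes were at least 2-fold higher on the array labelled KO in the duodenum (*Nckipsd*, *Celsr3*, *Tmem89* and *Slc25a20*) and none was 2-fold lower. With normexp 2 of the 10 were 2-fold apart, *Nckipsd* higher and *P4htm* lower. Both had WT duodenum signals (11.1 and 21.4) below the normexp offset of 50. Of all genes compared there, 7.2% were that much higher, 11.9% that much lower and 19.1% apart in either direction. At 1.5-fold, 7 of the 10 were apart, where 39.6% of all genes were. The median difference of the 10 was 0.57, with 6 above 0, against −0.11 for all genes. With normexp it was 0.038, with 5 above 0, against −0.18. None of the 10 was 2-fold apart in the spinal cord, where 3.15% of all genes were (2.28% higher and 0.865% lower), and 2 of the 10 (*Nckipsd* and *Prkar2a*) were 1.5-fold apart, where 8.43% of all genes were. The median difference there was −0.08, against −0.04 for all genes.

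The other genes around *Ip6k2* differed little between the labels in the spinal cord. Of the 30 protein-coding genes nearest to *Ip6k2*, 15 on each side, 28 were measured in each tissue, and *BC048562* and *Ucn2* were not well above background. *Nckipsd* and *Prkar2a* had the largest differences in the spinal cord, 0.94 and −0.93, with an order that turned under normexp (1.02 and −1.03), median centring and spiked-in scaling, and the other 26 lay between −0.40 and 0.25. *Nckipsd* ranked first in the duodenum, where *Prkar2a* had rank 10. The 18 measured genes outside the 10 had a median difference of −0.08 in the duodenum, from −1.54 to 0.57, with 2 of them 2-fold lower on the array labelled KO (*Trex1*, a DNA exonuclease, at −1.16 and *Fbxw21* at −1.54) and none 2-fold higher. Their spinal cord median was 0.03 and none was 2-fold apart.

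**Figure D2:**
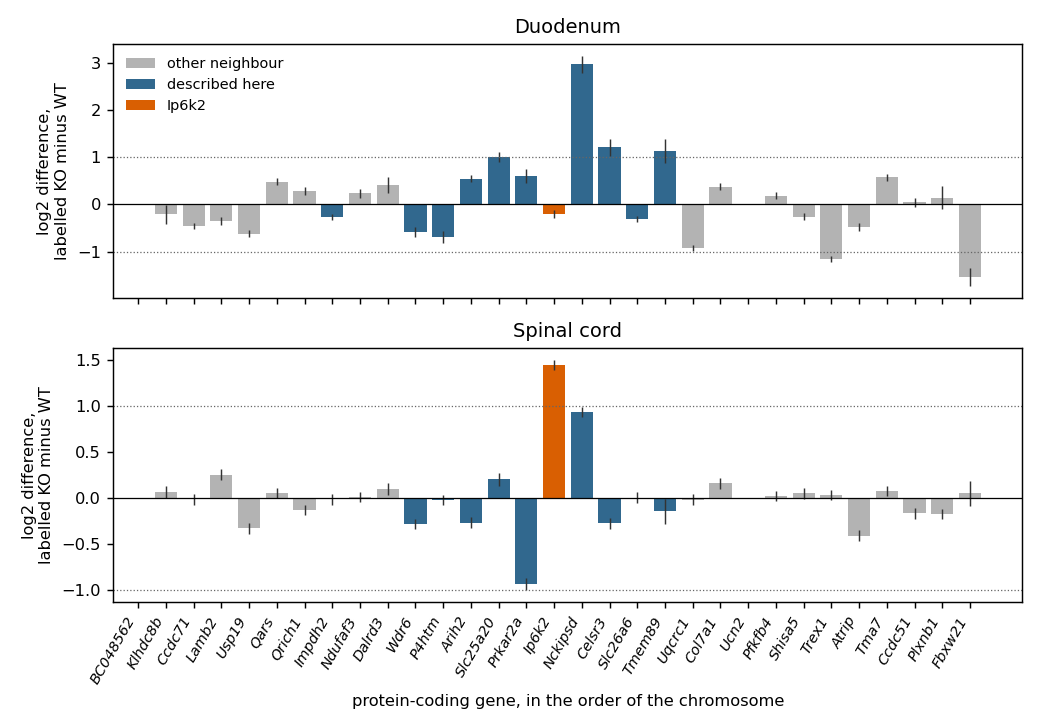
Difference in normalized log2 level, labelled KO minus WT, for *Ip6k2* and its 30 nearest protein-coding genes in the order of the chromosome, duodenum above and spinal cord below, with technical SDs as vertical lines and 2-fold as dotted lines; *BC048562* and *Ucn2* have no bar because they were not well above background. In the spinal cord *Ip6k2*, *Nckipsd* and *Prkar2a* stand at 1.45, 0.94 and −0.93 while the rest lie between −0.40 and 0.25, and in the duodenum *Nckipsd* stands at 2.97.

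*Slc26a6*, *Celsr3*, *P4htm* and *Wdr6* differed more between the tissues than between the labels. Since the 4 arrays differ in brightness, each difference is given as duodenum minus spinal cord and minus that of the median gene, which was 0.63 for WT and 0.30 for KO. *Slc26a6* was higher in the duodenum by 6.62 in WT and 6.63 in KO, and *Celsr3* was lower there, at −6.01 and −4.20. *P4htm* was at −4.27 and −4.62, *Wdr6* at −2.69 and −2.67, and *Nckipsd* at −4.01 and −1.65. *Tmem89* was at 1.23 and 2.82, *Slc25a20* at 0.98 and 2.11, and *Impdh2* at 0.77 and 0.83. *Arih2* was at −1.35 and −0.22 and *Prkar2a* at −1.41 and 0.45, so these moved nearer to the median gene on the arrays labelled KO. In WT 8 of the 10 were at least 2-fold apart, 2 higher and 6 lower in the duodenum, where 56% of all genes were apart, 23.8% higher and 32.2% lower. On the arrays labelled KO 7 of the 10 were, 3 higher and 4 lower, where 56.1% of all genes were apart, 25.7% higher and 30.4% lower. Of genes well above background on both arrays compared, 64.9% were apart in WT and 55.1% in KO. The largest values depended on background correction in size and not in sign. Over the alternatives *Celsr3* in WT ran from −6.01 to −3.46, *Slc26a6* from 5.61 to 6.62 and *Nckipsd* from −4.01 to −1.94, whereas *Impdh2* ran from −0.11 to 0.81.

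**Figure D3:**
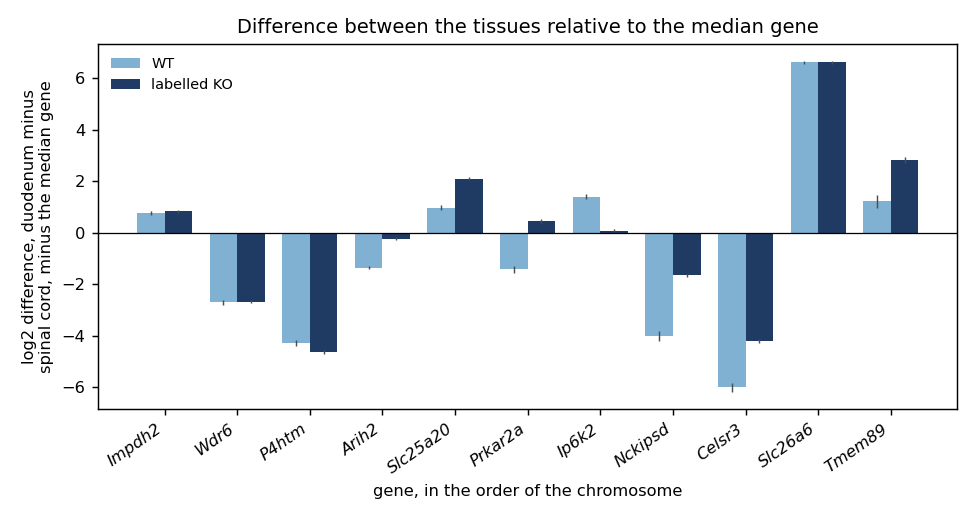
Difference in normalized log2 level, duodenum minus spinal cord and minus that of the median gene, for the 10 flanking genes and *Ip6k2*, with WT in light and labelled KO in dark bars and technical SDs as vertical lines. *Slc26a6* stands at 6.62 and 6.63 and *Celsr3* at −6.01 and −4.20, and the *Nckipsd* bars at −4.01 and −1.65.

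The other genes of the pathways that the flanking genes belong to were read from 9 lists of 90 genes in all, of which 88 were measured in each tissue. At least 2-fold higher on the array labelled KO were 5 in the duodenum (6 lower) and 1 in the spinal cord (0 lower), of 88 in each. Over all genes, 7.2% and 11.9% were that much higher or lower in the duodenum, against 2.28% and 0.865% for the spinal cord. None of the 9 protein kinase A genes was 2-fold apart in either tissue, with medians of −0.15 (duodenum) and −0.09 (spinal cord). Of 11 genes listed as partners of SPIN90, only *Diaph1*, a formin, was 2-fold apart, at −2.22 in the duodenum. Of 11 planar cell polarity genes, the receptor *Fzd3* was at 1.25, *Vangl2* at −1.004 and the adaptor *Dvl3* at −2.85 in the duodenum. Of 10 anion exchange genes, *Slc4a1*, the red cell anion exchanger, was at 1.54 in the spinal cord and −2.09 in the duodenum, the directions of the red blood cell markers. Of 9 carnitine shuttle genes *Crat* was at −1.45, and of 10 genes of cullin-based ubiquitin ligation *Elob* was at −1.28 in the duodenum. The purine synthesis genes *Guk1* and *Paics*, of 10, were at 1.26 and 1.29, and the tRNA methyltransferase genes *Trmt6* and *Nsun2*, of 9, at 1.25 and 1.09. None of 11 prolyl hydroxylase and hypoxia genes was 2-fold apart. On the WT duodenum array *Fzd3* (−3.08), *Slc4a1* (−2.66) and *Trmt6* (−2.65) were about as dim as *Celsr3* (−2.69). The pathway genes were not read under the alternative treatments. Over the 9 lists the medians ran from −0.26 to 0.25 in the duodenum and from −0.09 to 0.04 in the spinal cord.

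The genes whose levels over the 4 arrays were closest to those of *Nckipsd*, by Euclidean distance after centring each of 16182 genes on its own mean, were *Gatm* at 0.63, the transcript ENSMUST00000088295 at 0.74, *Car2* at 0.75, *Dclk3* at 0.80 and the transcript AK017236 at 0.82. Their duodenum differences ran from 1.93 to 2.57, below the 2.97 of *Nckipsd*, and their spinal cord differences from −0.10 to 0.67, below its 0.94.

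The size of the differences depended on how the arrays were treated. The plot of differences by setting shows the values of each gene under the alternatives other than scaling on spiked-in controls. Relative to the median gene, the *Nckipsd* difference ran from 1.37 to 3.12 in the duodenum and from 0.92 to 1.46 in the spinal cord.

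**Figure D4:**
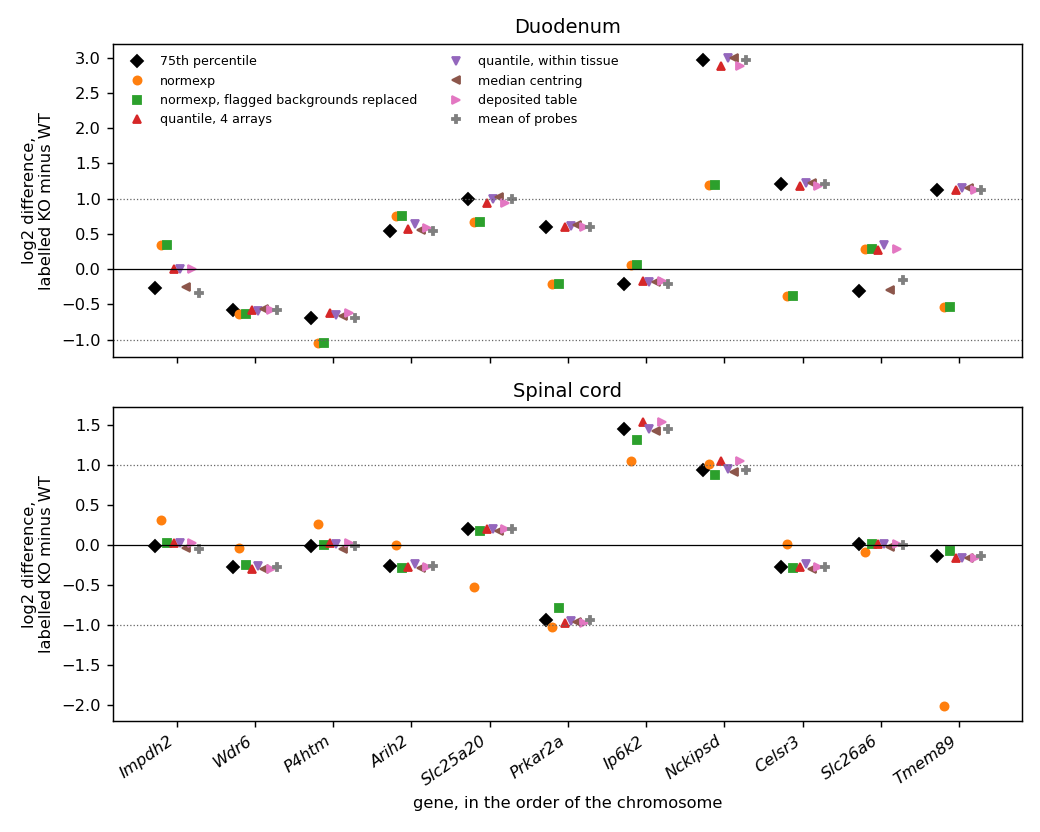
Difference in normalized log2 level, labelled KO minus WT, for each flanking gene and *Ip6k2* under 8 treatments of the arrays, duodenum above and spinal cord below, with 2-fold as dotted lines. *Nckipsd* stays above 0 in both tissues, from 1.19 to 2.99 in the duodenum, whereas *Celsr3*, *Tmem89* and *Prkar2a* in the duodenum fall below 0 with either form of normexp.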

How the data were processed

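The authors deposited the scanner output of 4 one-colour Agilent arrays (Cy3; Agilent Feature Extraction 11.5.1.1, per the labels), 1 array per genotype and tissue. The processed signal is a deposited intensity after background subtraction and detrending. The authors also deposited a table of log2 values, which could be rebuilt by raising signals below 1 to 1 and quantile normalization of the 4 arrays, within 0.0063 for the probes described here.

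Here, control and outlier spots were dropped, log2 of the processed signal minus the 75th percentile of the array was averaged across spots of the same probe, and the brightest probe on average stood for its gene. Accessions were named through RefSeq's table for GRCm38.p6 (25868 of 26391 RefSeq mRNA probes matched). The files name an older build, so the only coordinates given are those of the RefSeq windows. The technical SD is the median spread over spots of the 50 probes nearest in level among 397 probes spotted 10 times, combined over the arrays compared. No test was made, since every group holds 1 array, and the number of arrays limits the precision. Differences were called at 2-fold. Genes above background on 1 array of a pair entered the counts over all genes as lower bounds, taken against the dimmer array's lowest level above background or the probe's own if higher. All 10 flanking genes and *Ip6k2* were named by rule, with outer neighbours and pathway genes only where 2-fold apart, and the 5 genes closest to *Nckipsd*. The genes and lists were chosen with earlier results of these data known.

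The alternatives were normexp background correction of the median spot signal (limma 3.58.1, offset 50), normexp with outlying local backgrounds set to the median of the array, quantile normalization of the 4 arrays or within each tissue, centring on the median, scaling on 8 spiked-in controls, the deposited table, the mean of the probes of a gene, and a 1.5-fold threshold. The script of the differences was tested on simulated data. Analyses used Python 3.11.15, numpy 2.4.6, pandas 2.3.3 and R 4.3.3.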

Additional observations from a re-analysis of the deposited data

Results flagged for a closer look

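In the genes below, the labelled KO array was above the WT array in one tissue and below it in the other. With 1 array in each group this difference between the tissues was not tested. As the duodenum difference minus the spinal cord difference on the log2 scale, it was 0.80 for *Arih2*, 1.53 for *Prkar2a*, 1.48 for *Celsr3*, 1.27 for *Tmem89* and −1.66 for *Ip6k2*. The spinal cord value of *Tmem89*, −0.14, barely exceeded its technical SD of 0.14. The duodenum directions of *Prkar2a*, *Celsr3*, *Tmem89* and *Ip6k2* turned with normexp background correction, and that of *Arih2* did not. This correction adds an offset of 50. The WT duodenum signals of *Prkar2a* (18.2), *Celsr3* (10.6) and *Tmem89* (6.54) lay below that offset, so for these genes the turn does not decide the direction.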

How the results depend on the processing

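No paired analysis was possible because a group holds a single array, and no replicate could be left out. The WT duodenum array was dim, and its low spots (*Nckipsd*, *Celsr3*, *Tmem89*) had medians of 31 to 35 over local backgrounds of 23 to 24, which limits every duodenum ratio there. On that array the signals of *Nckipsd* (11.1) and *P4htm* (21.4) also lay below the normexp offset of 50. Under normexp, 2 of the 10 genes were 2-fold apart in the duodenum (*Nckipsd* at 1.19 and *P4htm* at −1.05) in place of 4, when 18.2% of all genes were, and 3 in the spinal cord in place of 0 (*Nckipsd* at 1.02, *Prkar2a* at −1.03 and *Tmem89* at −2.02), when 38.6% were. Duodenum signs turned for *Impdh2* (0.34), *Prkar2a* (−0.21), *Celsr3* (−0.39), *Slc26a6* (0.28), *Tmem89* (−0.54) and *Ip6k2* (0.058), and spinal cord signs for *Slc25a20* (−0.52), *Celsr3* (0.016) and the near-zero *Impdh2* (0.31), *P4htm* (0.26) and *Slc26a6* (−0.09). The WT spinal cord array held a local background as high as 15708, and the median gene there was at −0.45. With outlying backgrounds replaced, the spinal cord count was 0, *Nckipsd* was at 0.87 in the spinal cord and 1.19 in the duodenum, the duodenum count was again 2, and the duodenum signs turned as before, for *Impdh2* (0.34), *Prkar2a* (−0.21), *Celsr3* (−0.39), *Slc26a6* (0.28), *Tmem89* (−0.54) and *Ip6k2* (0.058). Quantile normalization of the 4 arrays gave *Impdh2* 0.0031 and *Slc26a6* 0.27 in the duodenum and put *Nckipsd* at 1.04 in the spinal cord, 1 gene past 2-fold. Within each tissue it gave *Impdh2* 0.0029 and *Slc26a6* 0.34. The deposited table gave *Impdh2* 0.0036 and *Slc26a6* 0.28, and *Nckipsd* 1.05 in the spinal cord, again 1 gene past 2-fold.

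Scaling on spiked-in controls moved the median of all genes to 2.89 in the duodenum, so that 10 of 10 genes and 96.3% of all genes were 2-fold apart. It put *Nckipsd* at 5.97, *Impdh2* at 2.73, *Wdr6* at 2.42, *P4htm* at 2.31, *Slc26a6* at 2.69 and *Ip6k2* at 2.80. In the spinal cord it put *Nckipsd* at 0.77, with 1 gene past 2-fold (*Prkar2a*, −1.10). A 1.5-fold threshold gave 7 duodenum and 2 spinal cord genes. Of 176 differences recomputed for the 10 genes and *Ip6k2*, 37 turned sign, of which 25 started from a value beyond its technical SD and 12 from a spinal cord value within it. Apart from those 25, 107 moved by less than the technical SD and 44 by more. The 107 include genes with 1 probe under the mean of probes, which leaves them unchanged. For moved values, the cause was not tested.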
